A study of Mus musculus with 36 samples.

Results

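The miRNAs encoded inside the Hox gene clusters were followed across the mouse prostate. The 6 mature miRNAs were chosen by name: both arms of the miR-10a hairpin (mmu-miR-10a-5p and mmu-miR-10a-3p), both arms of the miR-10b hairpin (mmu-miR-10b-5p and mmu-miR-10b-3p), mmu-miR-196a-5p and mmu-miR-196b-5p. They were 6 of the 1963 miRNAs listed, and all 6 were above the minimum mean level that a miRNA needed to be tested. Levels are given as reads per 1000000 miRNA reads of the same library (RPM), and differences as log2 of RPM + 1.

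Small RNA of the prostate was sequenced in 36 libraries from male mice, in 12 groups of 3. The methods describe RNA from the ventral and lateral lobes under RNA sequencing and name no lobe for the miRNA libraries. Elac2 encodes an endonuclease that trims the 3′ ends of tRNA precursors, and the study asked how its loss or mutation changes small RNAs in the normal and tumour-prone prostate. The KO and A537T lines were made on a background given as C56NL/6N. The methods do not state the strain of the homozygous TRAMP mice they were bred with. All mice were 10 or 30 weeks old and were matched by age and litter. WT mice carried intact Elac2. KO mice had a homozygous Elac2 deletion made in the prostate by Cre under the probasin promoter, which is active in prostate epithelium, so that stromal, vascular and blood cells were not the target of the deletion. A537T mice were homozygous for a point mutation in Elac2 introduced into the mouse genome. The same 3 Elac2 genotypes on the tumour-prone background, named WT-TRAMP, KO-TRAMP and A537T-TRAMP, were heterozygous for TRAMP, a transgene that expresses the SV40 T antigens from the probasin promoter in prostate epithelium. Libraries are named by the number of their column. The columns carry no sample name, so groups rest on the names of the tables: a column present in both the KO and the mutant table of a background and age was read as the shared control, and the mutant as A537T. KO and A537T therefore share their 3 controls within each age and background. Elac2 mRNA was not measured here, and nothing in these data checks the genotype labels. The mice behind the libraries are not named individually, so p-values measure the spread between these libraries.

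MicroRNA genes of the miR-10 family lie beside the Hox4 paralogs and those of the miR-196 family beside the Hox9 paralogs, and they are transcribed in register with the neighbouring Hox genes along the body axis. Their known targets include Hox mRNAs, and miR-196 is best known for directing cleavage of Hoxb8 mRNA. A mature miRNA recognises its targets mainly through its seed, the bases at positions 2 to 8 from the 5′ end. The prostate forms in the posterior body, where posterior Hox genes are active in both the epithelium and the surrounding mesenchyme. In bulk tissue, fewer cells of a type and less RNA per cell cannot be told apart.

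The mature sequences are shown because the members of each family are close enough to share reads. All 6 were found in RefSeq on GRCm38.p6 and carry 4 distinct seeds, written in capitals, 5′ to 3′. The first pair has the miR-10 seed, the second pair the miR-196 seed, and each miR-10 3p arm has a seed of its own.
mmu-miR-10a-5p: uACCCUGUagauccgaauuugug
mmu-miR-10b-5p: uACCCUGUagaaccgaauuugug
mmu-miR-196a-5p: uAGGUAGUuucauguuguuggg
mmu-miR-196b-5p: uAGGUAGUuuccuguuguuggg
mmu-miR-10a-3p: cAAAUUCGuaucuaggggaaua
mmu-miR-10b-3p: cAGAUUCGauucuaggggaaua

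Counting from the 5′ end, miR-10a-5p and miR-10b-5p differ by the single substitution U12A, and miR-196a-5p and miR-196b-5p by A12C. The 3p arms of miR-10a and miR-10b differ at 3 positions, A3G, U9A and A10U, of which the first lies in the seed. How many mismatches the read assignment allowed is not given in the sources used here, so reads could be split between members that differ by 1 base.

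The genes lie in all 4 Hox clusters. Mir10a (chr11:96317165-96317274, plus strand, GRCm38) lies between genes of the Hoxb cluster, 993 bases before the start of Hoxb4. Mir10b (chr2:74726070-74726137, plus strand) lies within the annotated spans of Hoxd3 and Hoxd4 and overlaps no exon. Mature miR-196a-5p is made from 2 genes and its reads cannot be assigned to either. Mir196a-1 (chr11:96265164-96265265, plus strand) lies between Hoxb13 and Hoxb9, 6192 bases from Hoxb9. Mir196a-2 (chr15:102973350-102973434, plus strand) lies inside the annotated span of Hoxc5, overlaps no exon, and is 3005 bases from Hoxc9. Mir196b (chr6:52230081-52230165, minus strand) lies inside Hoxa9, where it overlaps exons only of non-coding Hoxa9 transcripts, and is 1032 bases from Hoxa10.

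Total reads were 655455 in library 35 (A537T, 10 weeks) and between 4544257 and 21870210 in the others. The fewest reads behind any value of a member were the 18 of miR-10b-3p in library 35, which gave 27.5 RPM with a 95% Wilson interval of 17.4 to 43.4, an interval that covers counting error only. Each of 7 epithelial marker miRNAs was above the minimum level and their sum made up 3.91% to 10.0% of the reads of every library, whereas 5 miRNAs of smooth muscle and stroma made up 5.80% to 39.5%. Skeletal muscle miRNAs took 9.58% to 30.5% of reads in WT at 10 weeks, 3.69% to 13.6% in A537T at 10 weeks, 0.725% to 6.41% in KO at 10 weeks and at most 3.07% in the other 9 groups. Leukocyte miRNAs stayed between 0.0234% and 0.170% and endothelial miRNAs between 0.493% and 1.86%.

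All 6 members were detected in every library and together made up 1.03% to 5.61% of its miRNA reads. By mean level, miR-10a-5p ranked 15 among all miRNAs and miR-10b-5p ranked 22. The level of miR-10a-5p ran from 6359 to 32210 RPM with a median of 9789, a 5.06-fold range, and that of miR-10b-5p from 1412 to 41894 RPM with a median of 6212, a 29.7-fold range. The 3p arms were far lower, at 57.9 to 222 RPM for miR-10a-3p and 6.93 to 234 RPM for miR-10b-3p. Between the miR-196 members, miR-196b-5p was the more abundant, at 425 to 1694 RPM with a median of 1055, against 93.4 to 892 RPM with a median of 309 for miR-196a-5p.

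The order of the groups differed between members. For miR-10a-5p, KO at 10 weeks (23796 ± 3790 RPM; mean ± SD, n = 3 in this and every group), A537T at 30 weeks (23365 ± 11114) and KO at 30 weeks (21059 ± 10879.8) led, followed by A537T-TRAMP at 30 weeks (14448 ± 4376), WT-TRAMP at 30 weeks (12657 ± 4664), WT at 10 weeks (12495 ± 6141) and A537T-TRAMP at 10 weeks (12034 ± 3271). The 5 lowest groups lay close together, from WT at 30 weeks (9158 ± 592) through KO-TRAMP at 10 weeks (9113 ± 2707), A537T at 10 weeks (8927 ± 1190) and KO-TRAMP at 30 weeks (8462 ± 1046) to WT-TRAMP at 10 weeks (8140 ± 1697). None of the 11 pairs of neighbours in this order was further apart than the larger of their SDs.

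For miR-10b-5p the order began with KO-TRAMP at 30 weeks (24006 ± 20391 RPM), KO at 10 weeks (17088 ± 2804), A537T at 30 weeks (14357 ± 10315) and KO at 30 weeks (12081 ± 8412). It went on with WT at 10 weeks (8771 ± 4388), WT-TRAMP at 30 weeks (7327 ± 5739), A537T at 10 weeks (6896 ± 767), A537T-TRAMP at 30 weeks (6039 ± 3321) and A537T-TRAMP at 10 weeks (5869 ± 4088). WT at 30 weeks (4108 ± 1592), KO-TRAMP at 10 weeks (3549 ± 2298) and WT-TRAMP at 10 weeks (2270 ± 223) were lowest. Again 0 of 11 neighbouring pairs were separated beyond the larger SD, and the leading group held libraries of 1803, 41894 and 28319 RPM, so its mean describes none of them.

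For miR-196a-5p, WT-TRAMP at 10 weeks was highest (655 ± 234 RPM), followed by KO-TRAMP (426 ± 18.3), A537T-TRAMP (357 ± 76.4), WT (347 ± 24.3) and A537T (327 ± 11.5) at the same age. The groups of 30-week-old mice with TRAMP came next, at 324 ± 91.4 for A537T-TRAMP, 302 ± 65.7 for WT-TRAMP and 264 ± 68.0 for KO-TRAMP. KO at 10 weeks (258 ± 46.6) and the 3 groups of 30-week-old mice without TRAMP, WT (219 ± 111), KO (134 ± 7.70) and A537T (131 ± 8.73), were lowest, and 0 of 11 neighbours stood beyond the larger SD. By contrast the group means of miR-196b-5p varied little, from 790 ± 137 RPM in KO-TRAMP at 30 weeks to 1406 ± 74.1 in KO at 10 weeks. Its single libraries ran from 425 to 1694 RPM, a 3.98-fold range, and WT at 10 weeks had a mean of 909 ± 461. Only WT-TRAMP at 30 weeks (1209 ± 94.8) and A537T at 30 weeks (1094 ± 76.5) were neighbours further apart than the larger SD.

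**Figure D1:**
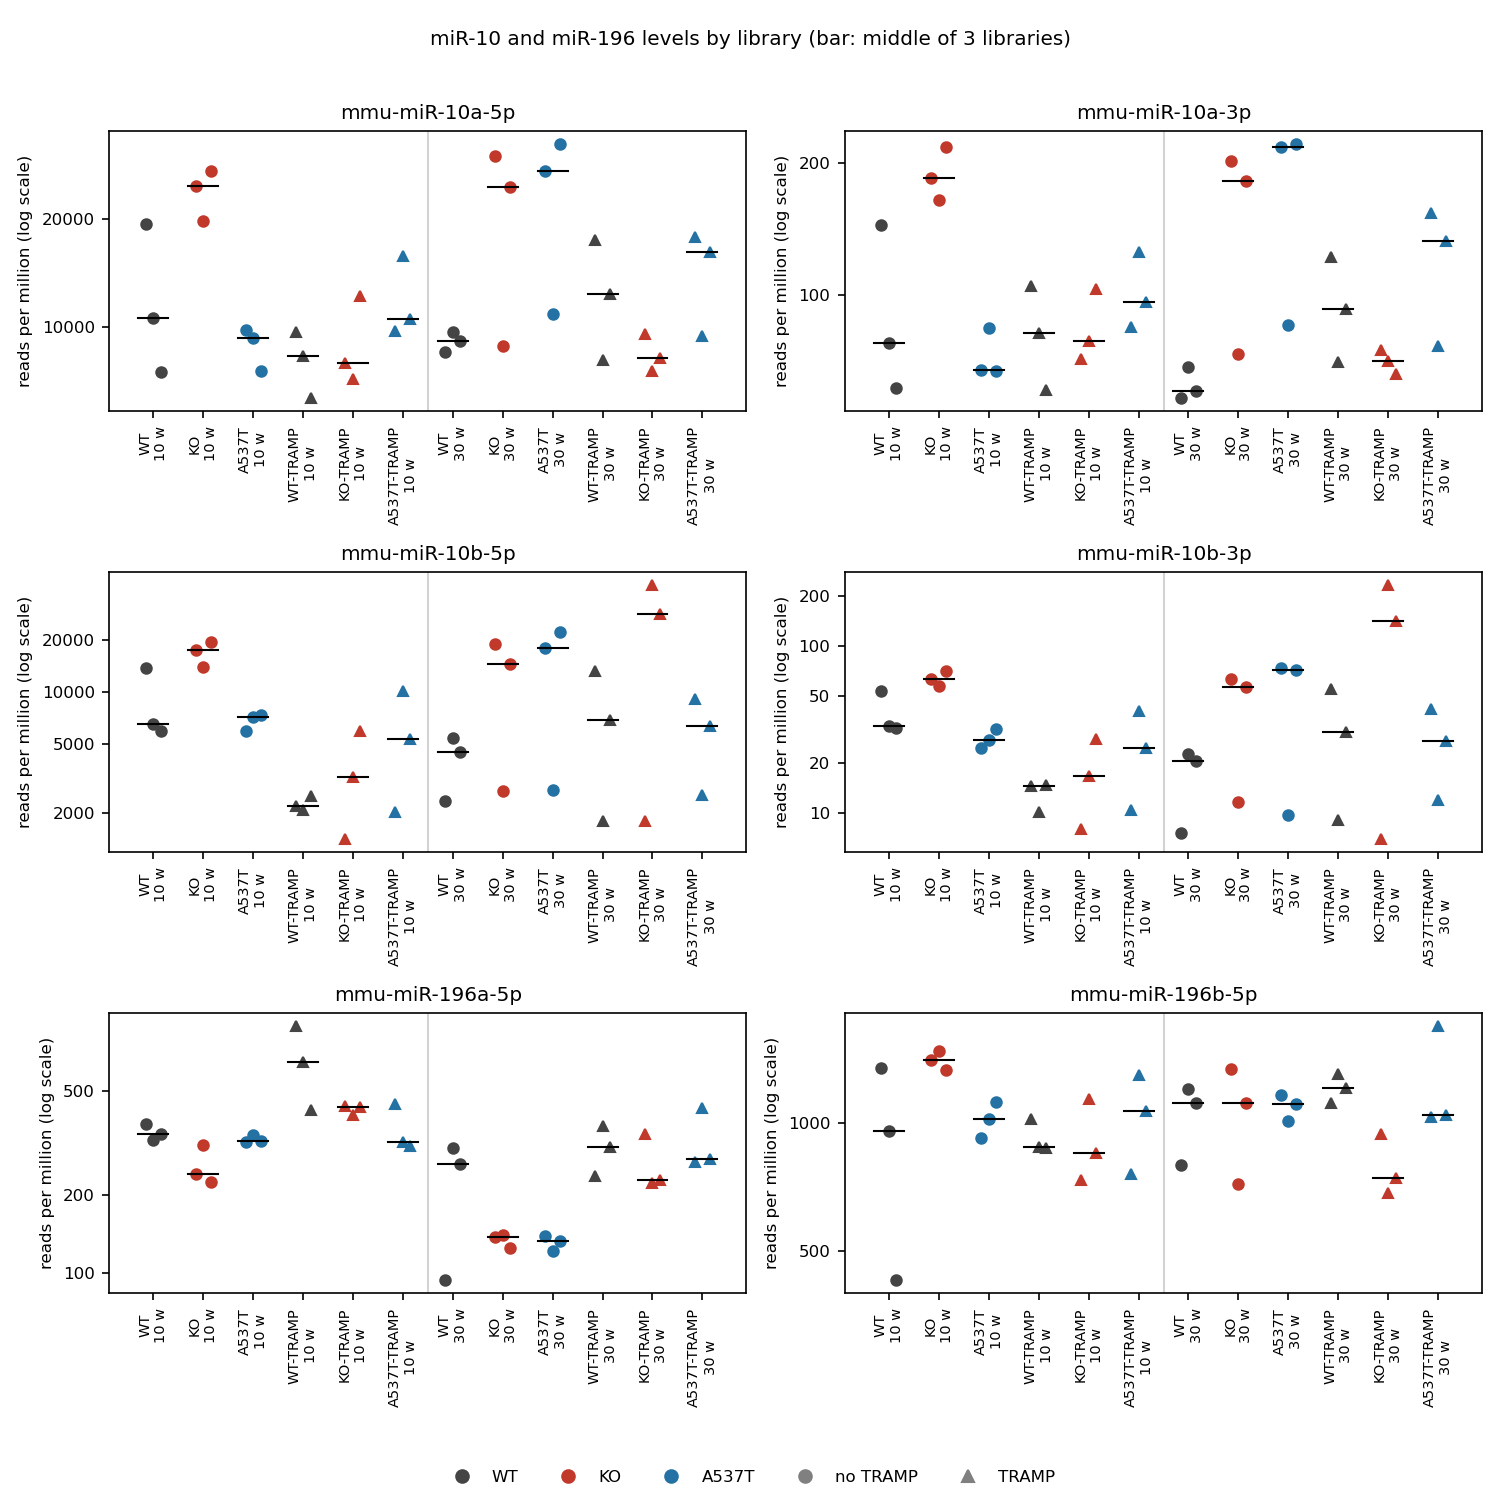
Level of each of the 6 miRNAs in RPM (log axis) in the 36 libraries, grouped by genotype, TRAMP status and age, with each point 1 library and each bar the middle library of a group. The 3 KO libraries at 10 weeks lie above the 3 WT libraries of that age for miR-10a-5p, whereas the 3 KO-TRAMP libraries at 30 weeks spread from 1803 to 41894 RPM for miR-10b-5p.

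The first comparison asked whether loss or mutation of Elac2 changed the Hox cluster miRNAs. In KO mice without TRAMP and in A537T mice at 30 weeks, both miR-10a arms and both miR-10b arms had higher means than WT by 0.71 to 1.41 log2 units, but none of these differences passed the test. Of the 48 member values in 8 comparisons of a mutant with its control, limma called 0 (adjusted p of at least 0.0761), with 9 at an unadjusted p under 0.05, whereas edgeR called 1 and DESeq2 called 5. Over all miRNAs in these 8 comparisons limma made 32 calls, edgeR 65 and DESeq2 141. Of the 298 miRNAs tested, limma called 5.7% for KO against WT at 10 weeks, 1.01% for KO against WT at 30 weeks and 4.03% for KO-TRAMP against WT-TRAMP at 30 weeks. The share was 0% in the other 5 comparisons. From these libraries the study names miR-10a-5p as an elevated miRNA in KO and A537T mice whose level correlated with reduced Tst mRNA. Its values here are therefore not independent evidence.

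At 10 weeks, miR-10a-5p stood at 19361, 10596 and 7527 RPM in WT, at 24625, 19660 and 27102 in KO and at 9832, 9371 and 7579.8 in A537T. All 3 KO libraries lay above all 3 WT libraries, although the lowest KO library exceeded the highest WT library, number 28, only slightly, and the A537T libraries lay within the WT range. The difference of KO from WT was 1.03 ± 0.40 (SE; adjusted p = 0.119, limma). Without library 28 it was 1.40 with an adjusted p of 0.0186 (limma). With each library left out in turn it ran from 0.72 (without library 30) to 1.40, and it passed only without library 28. Leaving skeletal muscle miRNAs out of the total moved the median of all miRNAs in this comparison by -0.28.

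At 30 weeks, the same miRNA stood at 8549, 9732 and 9195 RPM in WT, at 29834, 8886 and 24458 in KO and at 26995, 10890 and 32210 in A537T. In each mutant line 2 libraries were high and 1, number 23 in KO and number 26 in A537T, was close to WT, and only A537T did not overlap WT. The differences from WT were 1.03 ± 0.40 for KO (adjusted p = 0.144) and 1.21 ± 0.40 for A537T (adjusted p = 0.154), with the same 3 controls. The KO value became 1.56 (adjusted p = 0.0222) without library 23, and the A537T value 1.69 (adjusted p = 0.0163) without library 26. With each library left out in turn, the values ran from 0.69 to 1.56 in KO and from 0.91 to 1.69 in A537T. The KO value also passed with median-of-ratios scaling (adjusted p = 0.0414) and DESeq2 (0.0049), and the A537T value with TMM scaling (0.0464) and DESeq2 (0.00634).

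The passenger arm miR-10a-3p had slightly larger differences, at 1.08 ± 0.36 in KO of 10 weeks (adjusted p = 0.0761), 1.16 in KO of 30 weeks (adjusted p = 0.0846) and 1.36 for A537T at 30 weeks (adjusted p = 0.137). Its WT libraries at 30 weeks held 57.9, 68.2 and 60.2 RPM, against 203, 73.2 and 183 in KO and 218, 85.4 and 222 in A537T, so neither mutant overlapped WT. The KO value at 10 weeks passed without library 23, 26 or 28 (1.08 to 1.44, adjusted p = 0.00926 to 0.0376), the KO value at 30 weeks without 23 or 26 (1.16 to 1.62, adjusted p = 0.0222 to 0.0482) and the A537T value without 26 (1.81, adjusted p = 0.00304). Libraries 23 and 26 are outside the 10-week comparison, and 26 is outside the KO comparison at 30 weeks. Leaving these out changed the error pooled over groups and not the value. With each library left out in turn, the lowest values were 0.82, 0.89 and 1.13. At 30 weeks both lines also passed with median-of-ratios scaling, TMM scaling and DESeq2, and KO with edgeR. The miR-10b-5p differences were of like size but carried a larger error, at 1.06 ± 0.93 in the KO of 10 weeks, 1.23 in the KO of 30 weeks and 1.41 in the A537T of 30 weeks, with adjusted p values from 0.465 to 0.560. For miR-196a-5p the corresponding values were -0.44, -0.54 and -0.58 (adjusted p = 0.352 to 0.399). For miR-196b-5p they were 0.78 (adjusted p = 0.115), 0.00 and 0.10. With 1 library left out the first ran from 0.31 to 1.14, and it passed only without library 28 (adjusted p = 0.00848). The 0.31 was without library 30, the WT library with the least miR-196b-5p (425 RPM) and 30.5% skeletal muscle reads.

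In the TRAMP background none of the members' values against WT-TRAMP passed with limma. The largest for the 5p arms of each family were miR-10b-5p in KO-TRAMP at 30 weeks, 1.23 (adjusted p = 0.454), and miR-196a-5p in A537T-TRAMP at 10 weeks, -0.83 (adjusted p = 0.573). For miR-196b-5p, KO-TRAMP at 30 weeks was lower than WT-TRAMP without overlap, at 944, 683 and 742 RPM against 1112, 1302 and 1211, but the difference of -0.62 ± 0.29 had an adjusted p of 0.212 with limma and 0.0298 with DESeq2.

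**Figure D2:**
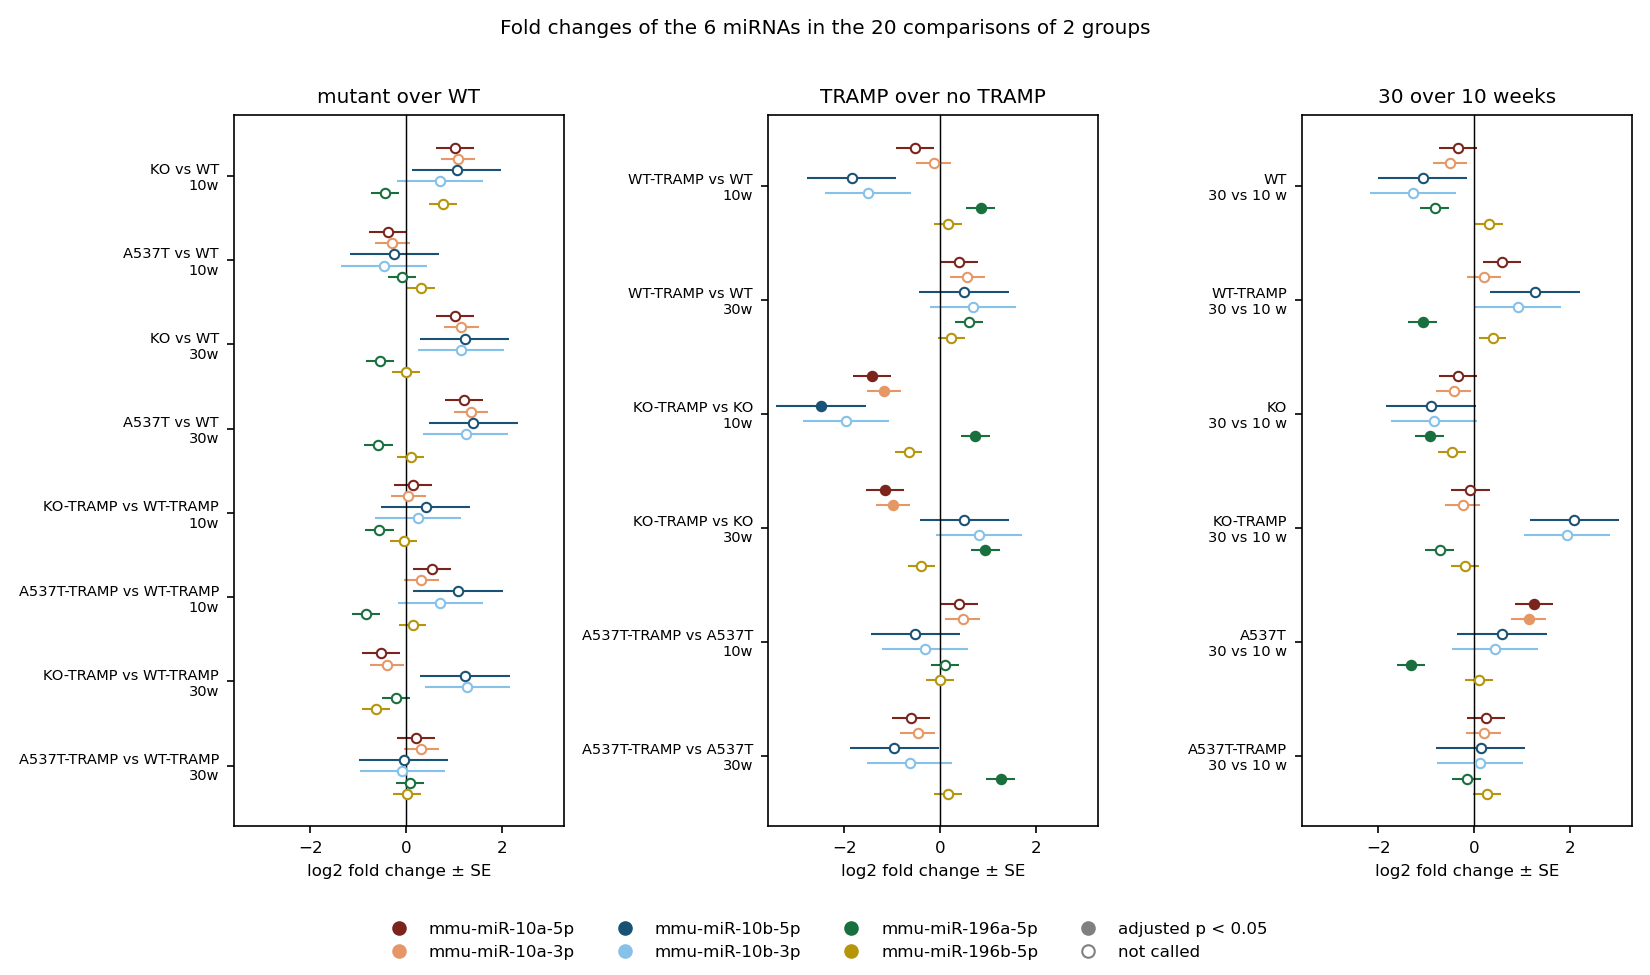
Fitted log2 difference in RPM + 1 of each of the 6 miRNAs in the 20 two-group comparisons, with bars for the standard error and filled points for an adjusted p under 0.05 by limma. The filled points lie in the TRAMP and age comparisons, and 0 of 48 lie in the comparisons of a mutant with its control.

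The TRAMP comparisons asked how the tumour-prone background changed the same miRNAs within each Elac2 genotype. Higher miR-196a-5p in 4 of 6 comparisons and lower miR-10 in the 2 KO comparisons made up all 9 calls among 36 values, 4 higher and 5 lower. This has to be read against the share of all 298 miRNAs called, which was 40.9% for WT at 10 weeks, 33.6% for WT at 30 weeks, 47.7% for KO at 10 weeks, 36.2% for KO at 30 weeks, 39.3% for A537T at 10 weeks and 15.1% for A537T at 30 weeks.

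The level of miR-196a-5p in WT mice at 10 weeks was 373, 325 and 343 RPM, and in WT-TRAMP 892, 648 and 425. The groups did not overlap, and the rise was 0.85 ± 0.30 (adjusted p = 0.0227, limma). In KO mice miR-196a-5p rose at 10 weeks from 239.6, 311 and 223 to 438, 405 and 435 RPM (0.74, adjusted p = 0.0429), and at 30 weeks from 137, 139 and 125 to 342, 221 and 228 (0.95, adjusted p = 0.0134), again without overlap. The A537T line at 30 weeks showed the largest difference, from 139, 121 and 132 RPM to 267, 429 and 275 (1.27, adjusted p = 0.00286). Markers of other cells moved in the same comparisons. In WT at 10 weeks 5 of 7 epithelial miRNAs rose (median of the list 1.07), and 2 of 2 endothelial and 5 of 5 skeletal muscle miRNAs fell. Of 5 leukocyte miRNAs in that comparison 2 rose and 1 fell, and 3 of 5 miRNAs of neuroendocrine cells rose. In KO at 10 weeks 1 leukocyte miRNA rose and 2 fell, and 1 neuroendocrine miRNA rose and 1 fell. At 30 weeks 3 of 5 neuroendocrine miRNAs rose in KO. In KO 3 of 7 epithelial miRNAs rose at each age while 1 fell at 10 weeks and 2 at 30 weeks, and at 30 weeks leukocyte miRNAs rose in KO (3 of 5) and A537T (2 of 5). Of the epithelial miRNAs 1 rose and 1 fell in A537T at 30 weeks. Markers also moved where miR-196a-5p did not pass. In A537T at 10 weeks 3 epithelial miRNAs rose and 1 fell, and 1 leukocyte miRNA rose and 2 fell. In WT at 30 weeks 3 leukocyte miRNAs rose, and 1 epithelial miRNA rose and 2 fell. The part of these markers in the rise of miR-196a-5p was not tested.

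Values for miR-196a-5p that did not pass were 0.61 in WT at 30 weeks (adjusted p = 0.113) and 0.10 in A537T at 10 weeks (adjusted p = 0.802). The WT value at 30 weeks rested on library 19, which held 93.4 RPM against 301 and 263 in the other WT libraries: without it the value was 0.0800, whereas without library 20 it was 0.92 and passed (adjusted p = 0.0282), as it did with TMM scaling (adjusted p = 0.0359). The sign of the value in A537T at 10 weeks turned when skeletal muscle miRNAs were left out of the total. The WT value at 10 weeks fell to 0.54 (adjusted p = 0.157) on that total, and those WT libraries held the 9.58% to 30.5% of skeletal muscle reads. With no filter on low levels its adjusted p was 0.0637, and with only the 6 libraries compared 0.0625. The call was also lost without any of libraries 1, 2, 29 or 30 (0.60 to 0.85, adjusted p = 0.0505 to 0.167), the KO call at 10 weeks without any of 7, 8, 9, 31 or 33 (adjusted p = 0.0589 to 0.126), with no filter (0.118) and with the members left out of the total (0.0527), and the KO call at 30 weeks without library 16 (0.74, adjusted p = 0.0695) and with median-of-ratios scaling (0.64, adjusted p = 0.0551). The A537T value at 30 weeks kept its call under all 47 alternatives.

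For miR-10a-5p, KO-TRAMP mice at 10 weeks had 7949.9, 7183 and 12208 RPM against 24625, 19660 and 27102 in KO. The groups were widely separated, and the difference was -1.41 ± 0.40 (adjusted p = 0.00602), a call that held under all 47 alternatives. The other arm, miR-10a-3p, fell by 1.17 (adjusted p = 0.0106) from 185, 165 and 217 to 71.2, 78.6 and 103 RPM, though the adjusted p was 0.0545 without library 7 and 0.0691 with median-of-ratios scaling (-0.78). The level of miR-10b-5p fell by 2.49 ± 0.93 (adjusted p = 0.0299), from 17663, 14041 and 19561 to 1412, 3257 and 5979 RPM. That call was lost without any of libraries 7, 31, 32 or 33 (-2.62 to -1.94, adjusted p = 0.0545 to 0.167), with no filter (0.0863) and with median-of-ratios scaling (0.0594). Values of -1.96 for miR-10b-3p (adjusted p = 0.069) and -0.66 for miR-196b-5p (adjusted p = 0.0626) did not pass.

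At 30 weeks, miR-10a-5p in KO-TRAMP was 9606, 7555 and 8226 RPM against 29834, 8886 and 24458 in KO, and the groups overlapped through library 23. The difference of -1.15 (adjusted p = 0.0234) and that of miR-10a-3p of -0.98 (adjusted p = 0.0339) were lost without any of libraries 17, 18, 22 or 24 (adjusted p = 0.062 to 0.172), and with only these 6 libraries in the fit (adjusted p = 0.124), and that of miR-10a-3p also with no filter (0.0688). Unlike at 10 weeks, miR-10b-5p did not pass and had a value of 0.51 (adjusted p = 0.675). In WT mice at 10 weeks, miR-10b-5p stood at 13827, 6524 and 5961 RPM against 2208, 2084 and 2517 in WT-TRAMP, without overlap but with an adjusted p of 0.119 for the difference of -1.85. The error of miR-10b-5p is pooled over groups that differ widely in spread, and with only these 6 libraries in the fit its adjusted p was 0.00441.

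The age comparisons asked what changed from 10 to 30 weeks. The clearest member was again miR-196a-5p, which was lower at 30 weeks, while both miR-10a arms were higher in A537T mice without TRAMP. Of 36 values 5 were called, 2 higher and 3 lower, with 9 at an unadjusted p under 0.05. Of all 298 miRNAs, 13.1% were called in WT, 8.72% in WT-TRAMP, 15.4% in KO, 18.1% in KO-TRAMP, 18.1% in A537T and 8.72% in A537T-TRAMP.

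The decrease of miR-196a-5p was -1.32 ± 0.30 in A537T (adjusted p = 0.00225, limma), from 319, 340.2 and 322 RPM at 10 weeks to 139, 121 and 132 at 30 weeks, and was called under all 47 alternatives. It was -1.07 in WT-TRAMP (adjusted p = 0.0224), where 892, 648 and 425 RPM fell to 236, 367 and 304, and -0.93 in KO (adjusted p = 0.0318), where 239.6, 311 and 223 RPM fell to 137, 139 and 125. These groups did not overlap. The WT-TRAMP call was lost without any of libraries 1, 2, 10 or 12 (adjusted p = 0.072 to 0.178) and with no filter (0.056). The KO call was lost without any of 23, 24, 31 or 32 (adjusted p = 0.0627 to 0.137), with no filter (0.0929), with TMM scaling (-0.66, 0.0683), with DESeq2 (-0.61, 0.0702) and with median-of-ratios scaling (-0.47, 0.173). Values of -0.83 in WT (adjusted p = 0.0598), -0.72 in KO-TRAMP (adjusted p = 0.0902) and -0.15 in A537T-TRAMP (adjusted p = 0.858) did not pass. The WT value was -0.30 without library 19 and passed without library 20 or 21 (-1.14 and -1.04, adjusted p = 0.0139 and 0.0353). The KO-TRAMP value passed without library 16 or 19 (adjusted p = 0.0272 to 0.0337). Library 19 is a WT library outside that comparison, and leaving it out changed the pooled error and not the value. The WT and KO-TRAMP values both passed with median-of-ratios scaling, TMM scaling and DESeq2. The WT value also passed with muscle miRNAs left out of the total or a minimum mean of 100.

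In A537T mice miR-10a-5p went from 9832, 9371 and 7579.8 RPM at 10 weeks to 26995, 10890 and 32210 at 30 weeks, a rise of 1.25 (adjusted p = 0.0273), and miR-10a-3p rose by 1.14 (adjusted p = 0.0272). The groups did not overlap, but library 26 lay close to the younger mice. Each call was lost when one of several libraries was left out, libraries 25, 27, 35 or 36 for miR-10a-5p (adjusted p = 0.0584 to 0.138) and 25, 27, 34 or 36 for miR-10a-3p (adjusted p = 0.0703 to 0.148). Both were also lost with no filter (adjusted p = 0.0676) and with only the 6 libraries compared (0.0539 and 0.0631). In KO-TRAMP mice miR-10b-5p was 1412, 3257 and 5979 RPM at 10 weeks and 1803, 41894 and 28319 at 30 weeks. Libraries 17 and 18 were the highest of all 36 and library 16 was among the lowest. The difference of 2.09 had an adjusted p of 0.114, and without library 16 it was 3.51 (adjusted p = 0.00237). It passed with edgeR (2.76, adjusted p = 0.0246) and DESeq2 (2.60, adjusted p = 0.00469).

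Differences between these effects were tested as interactions, and 0 of 66 member values passed with limma, with 8 at an unadjusted p under 0.05. On reads recovered from the same tables edgeR called 4 and DESeq2 called 8. Over all miRNAs in these interactions limma made 161 calls, edgeR 207 and DESeq2 296. The share of all miRNAs called by limma was 12.4% for TRAMP by age in WT, 31.2% in KO and 1.68% in A537T, 8.72% for KO by TRAMP at 30 weeks and 0% for the other 7 interactions. The smallest adjusted p was 0.0527, for miR-10a-3p in KO by TRAMP at 30 weeks (-1.55), with -1.55 also for miR-10a-5p (adjusted p = 0.0783). The first passed without any one of libraries 14, 16, 23, 26, 27, 28 or 30 (adjusted p = 0.0115 to 0.048). Of these, only 16 and 23 belong to that comparison, and leaving out the others changed the pooled error and not the value. For A537T by age both miR-10a arms passed without library 26 (2.07 and 2.09, adjusted p = 0.0421 and 0.0281). For TRAMP by age in KO, miR-10b-5p had a value of 2.99 (adjusted p = 0.0766), which was 4.41 (adjusted p = 0.00413) without library 16. With other scalings limma made calls in KO by TRAMP at 30 weeks, for both miR-10a arms with median-of-ratios (-1.89 and -1.89, adjusted p = 0.0126 and 0.0276) and TMM scaling (-1.92 and -1.91, adjusted p = 0.0204 and 0.0386), for miR-10a-3p with muscle miRNAs left out of the total (adjusted p = 0.0419) and for mmu-miR-196b-5p with median-of-ratios scaling (-0.97, adjusted p = 0.0319).

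The balance of the 2 near-identical members of each family was compared next. For miR-196 it differed with TRAMP and with age in all 4 tests, and for miR-10 with TRAMP at 10 weeks and with age in mice without TRAMP, while the other 2 miR-10 values had the opposite sign and did not pass. The ratio of miR-10a-5p to miR-10b-5p was above 1 in 34 of 36 libraries, with a median of 1.78, and below 1 in KO-TRAMP libraries 17 (0.180) and 18 (0.290). The ratio of miR-196a-5p to miR-196b-5p was below 1 in every library, between 0.103 and 0.876. Each ratio was compared between 9 and 9 libraries by an exact two-sided permutation test within the 3 Elac2 genotypes, with 8000 relabellings, a smallest possible p of 0.00025 and adjustment over 8 tests.

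At 10 weeks the log2 ratio of miR-10a-5p to miR-10b-5p was 1.56 ± 0.67 (SD, n = 9) with TRAMP and 0.45 ± 0.20 without, higher by 1.10 in 3 of 3 genotypes (exact permutation test, adjusted p = 0.003). At 30 weeks it was 0.64 ± 1.71 with TRAMP and 1.11 ± 0.59 without (exact permutation test, adjusted p = 0.430). Whether the TRAMP difference itself changed with age was not tested for this ratio. Without TRAMP, the ratio was higher at 30 than at 10 weeks by 0.65 in 3 of 3 genotypes (exact permutation test, adjusted p = 0.003). With TRAMP the age difference was -0.92 (exact permutation test, adjusted p = 0.202), and without library 16 it was -1.42 (adjusted p = 0.0354, exact permutation test).

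The log2 ratio of miR-196a-5p to miR-196b-5p was higher with TRAMP at both ages, by 0.73 at 10 weeks (exact permutation test, adjusted p = 0.0233) and by 0.94 at 30 weeks (exact permutation test, adjusted p = 0.003), with the same sign in 3 of 3 genotypes each time. At 10 weeks, however, A537T hardly differed, at -1.53 ± 0.67 with TRAMP and -1.64 ± 0.14 without. The values were -0.56 and -1.24 in WT, and -1.06 and -2.46 in KO. The ratio was lower at 30 than at 10 weeks with differences of -1.01 without TRAMP and -0.80 with TRAMP (exact permutation tests, adjusted p = 0.003 and 0.0032), again in every genotype. The TRAMP difference at 10 weeks had an adjusted p of 0.0507 to 0.0527 in the exact permutation test without library 1, 4 or 28. In A537T mice at 30 weeks the 3 libraries had ratios of 0.120 to 0.121, the narrowest spread of any group.

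**Figure D3:**
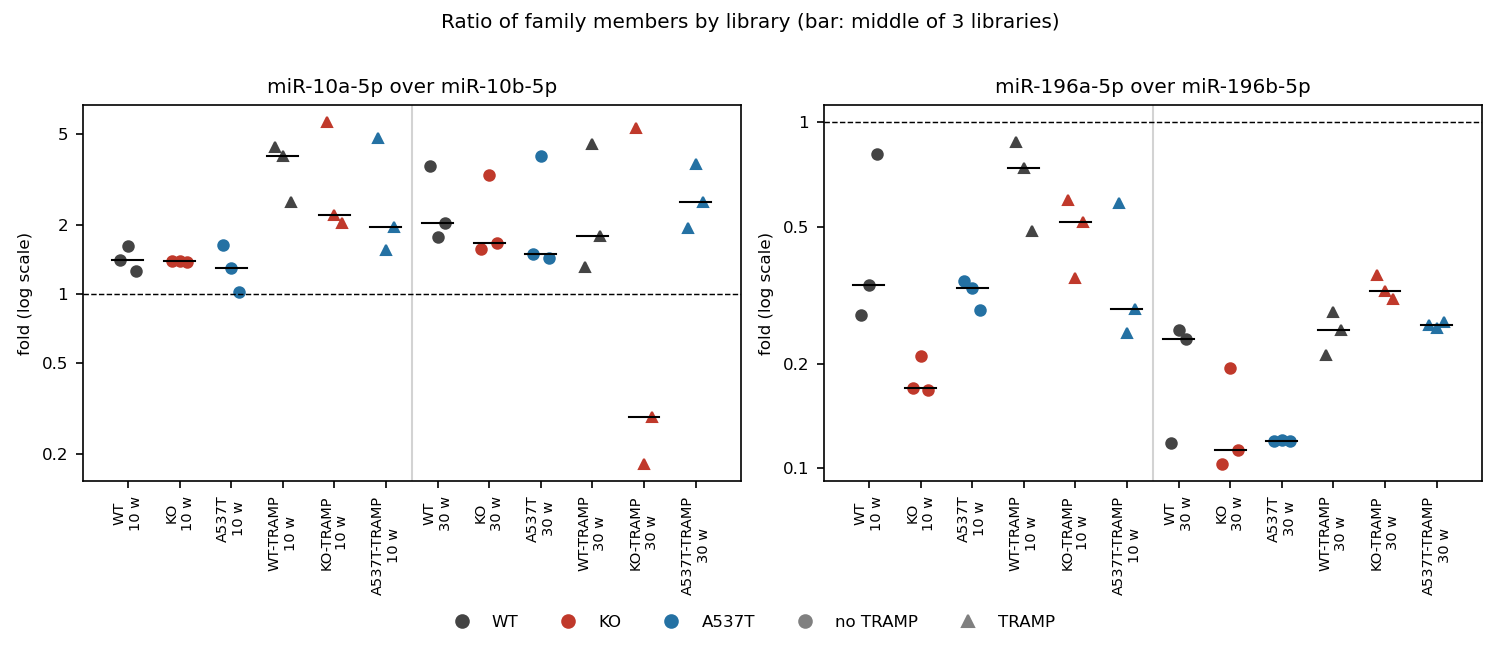
Ratio of miR-10a-5p to miR-10b-5p and of miR-196a-5p to miR-196b-5p as a fold (log axis) in each of the 36 libraries by group, with bars for the middle library of a group. KO-TRAMP libraries 17 and 18 at 30 weeks are the only points below 1 for miR-10, and all points lie below 1 for miR-196.

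The 2 arms of each miR-10 hairpin come from the same precursor, and their ratio can be read apart from the amount of precursor. The 5p arm exceeded the 3p arm of miR-10a 90.3-fold to 150.4-fold, with a median of 123, and that of miR-10b 142-fold to 305-fold, with a median of 223. Among 74 hairpins with both arms measured, miR-10b ranked 5 and miR-10a ranked 7 for dominance of the 5p arm. The log2 ratio of miR-10a had the lowest SD over the libraries of all 74 hairpins (0.18, against a median of 0.35), and that of miR-10b ranked 8 with an SD of 0.26.

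Of 40 arm ratio differences, limma called 2. The miR-10a ratio was lower in WT-TRAMP (92.3, 101 and 103) than in WT (121, 133 and 135) at 10 weeks, a difference of -0.39 ± 0.12 on the log2 scale (adjusted p = 0.0289), a call that was lost without library 1, 2, 28 or 29 (adjusted p = 0.0698 to 0.125). The miR-10b ratio was lower in KO-TRAMP (156, 184 and 207) than in KO (240.8, 272 and 273) at 10 weeks, a difference of -0.53 ± 0.16 (adjusted p = 0.0163), lost without library 7 or 31 (adjusted p = 0.0578 to 0.103). The groups did not overlap in either comparison, and the differences are small beside the more than 90-fold excess of the 5p arm. Among all 74 hairpins, the TRAMP comparisons called 17.6% in WT and 29.7% in KO and 25.7% in A537T at 10 weeks, and 29.7% in WT, 24.3% in KO and 18.9% in A537T at 30 weeks. For mutants against controls the share at 30 weeks was 2.7% in KO-TRAMP and 2.7% in A537T-TRAMP, and it was 0% in the other 6 comparisons. For age it was 0% in WT and in WT-TRAMP, 1.35% in KO, 10.8% in KO-TRAMP, 2.7% in A537T and 10.8% in A537T-TRAMP.

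**Figure D4:**
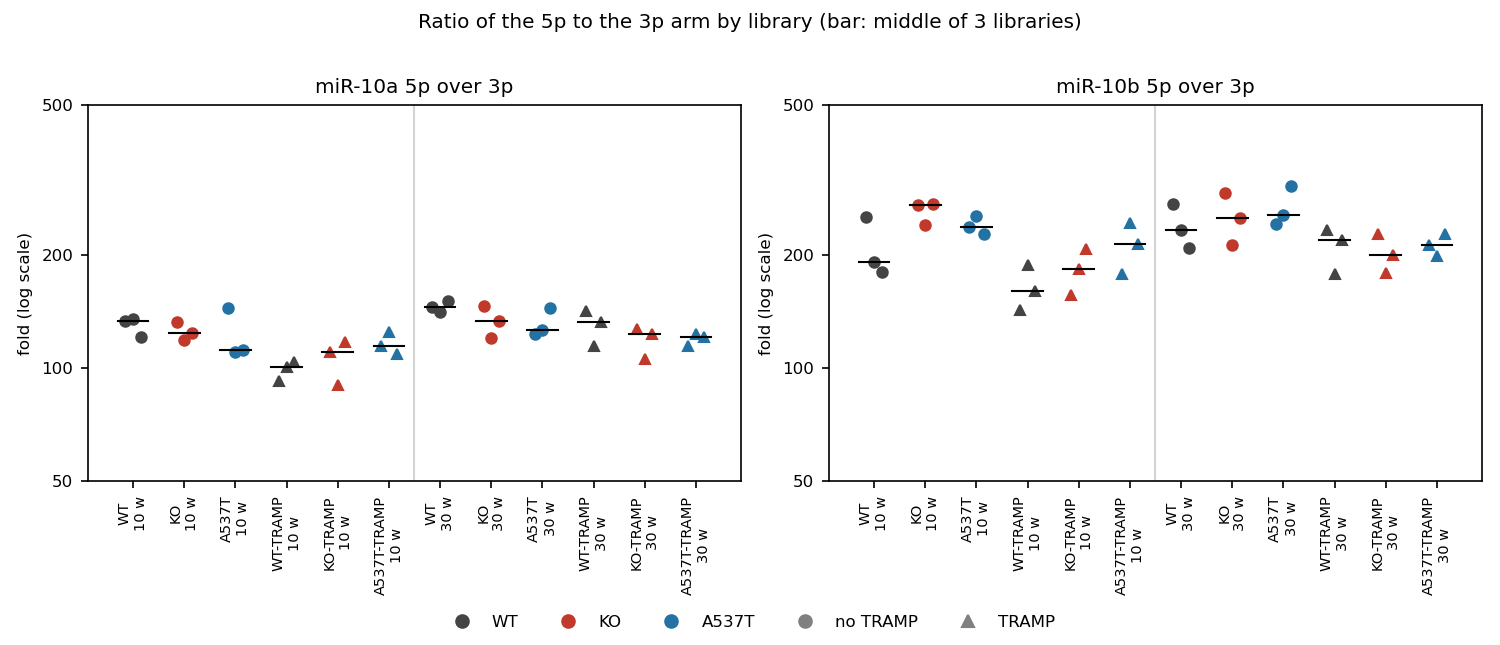
Fold excess of the 5p over the 3p arm of miR-10a and miR-10b (log axis) in each of the 36 libraries by group, with bars for the middle library of a group. Points for miR-10a lie between 90.3 and 150.4 and those for miR-10b between 142 and 305.

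The miR-10 levels were set beside the share of reads from 5 smooth muscle and stromal miRNAs, a share carried mostly by miR-143-3p (median 166092 RPM, against 119 to 6184 for the other 4). Within the 12 groups, the library with the highest miR-10b-5p was also the library with the highest stromal share in 11 groups, and the lowest was the lowest in 12. For miR-10a-5p the counts were 8 and 8, for miR-196b-5p 6 and 7 and for miR-196a-5p 2 and 3, and for miR-10b-5p against the 7 epithelial miRNAs 0 and 0. Against the 2 endothelial miRNAs they were 7 and 11 for miR-196b-5p, 6 and 8 for miR-10b-5p, 5 and 6 for miR-10a-5p and 5 and 7 for miR-196a-5p. The stromal share was 5.80% in library 16 and 33.99% and 24.3% in libraries 17 and 18, the KO-TRAMP group at 30 weeks in which miR-10b-5p ran from 1803 to 41894 RPM. Libraries 17 and 18 also held the most reads of 5 miRNAs of neuroendocrine cells, 3.22% and 2.84%, against 1.62% in library 16 and at most 1.90% elsewhere. The stromal share was 12.6% in library 23 against 29.4% and 27.1% in the other KO libraries at 30 weeks, and 16.5% in library 26 against 26.8% in both other A537T libraries. In KO mice at 10 weeks it was 35.4%, 29.9% and 35.5%, against 7.36%, 16.8% and 13.7% in KO-TRAMP, and 5 of 5 stromal miRNAs fell in that comparison. So did 2 of 2 endothelial miRNAs (median -1.07), the red cell miRNA tested (-1.75) and 2 of 5 leukocyte miRNAs, while 1 leukocyte miRNA and 3 of 7 epithelial miRNAs rose and 1 epithelial miRNA fell. In WT at 10 weeks the stromal share was 29.7%, 15.1% and 6.86% and in WT-TRAMP 10.9%, 8.79% and 10.95%. In A537T at 10 weeks it was 17.8%, 27.4% and 39.5%, while miR-10a-5p stood at 9832, 9371 and 7579.8 RPM in the same libraries. What part tissue composition had in the miR-10 differences was not tested. The libraries highest and lowest in miR-196a-5p matched those of the leukocyte miRNAs in 10 and 7 of 12 groups and those of the epithelial miRNAs in 7 and 4, and the part of this in its differences was not tested either. For miR-196b-5p the leukocyte counts were 7 and 7, and for miR-10b-5p against skeletal muscle miRNAs 5 and 7. Groups of 3 libraries give some matches at random, and none of these counts was tested.

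**Figure D5:**
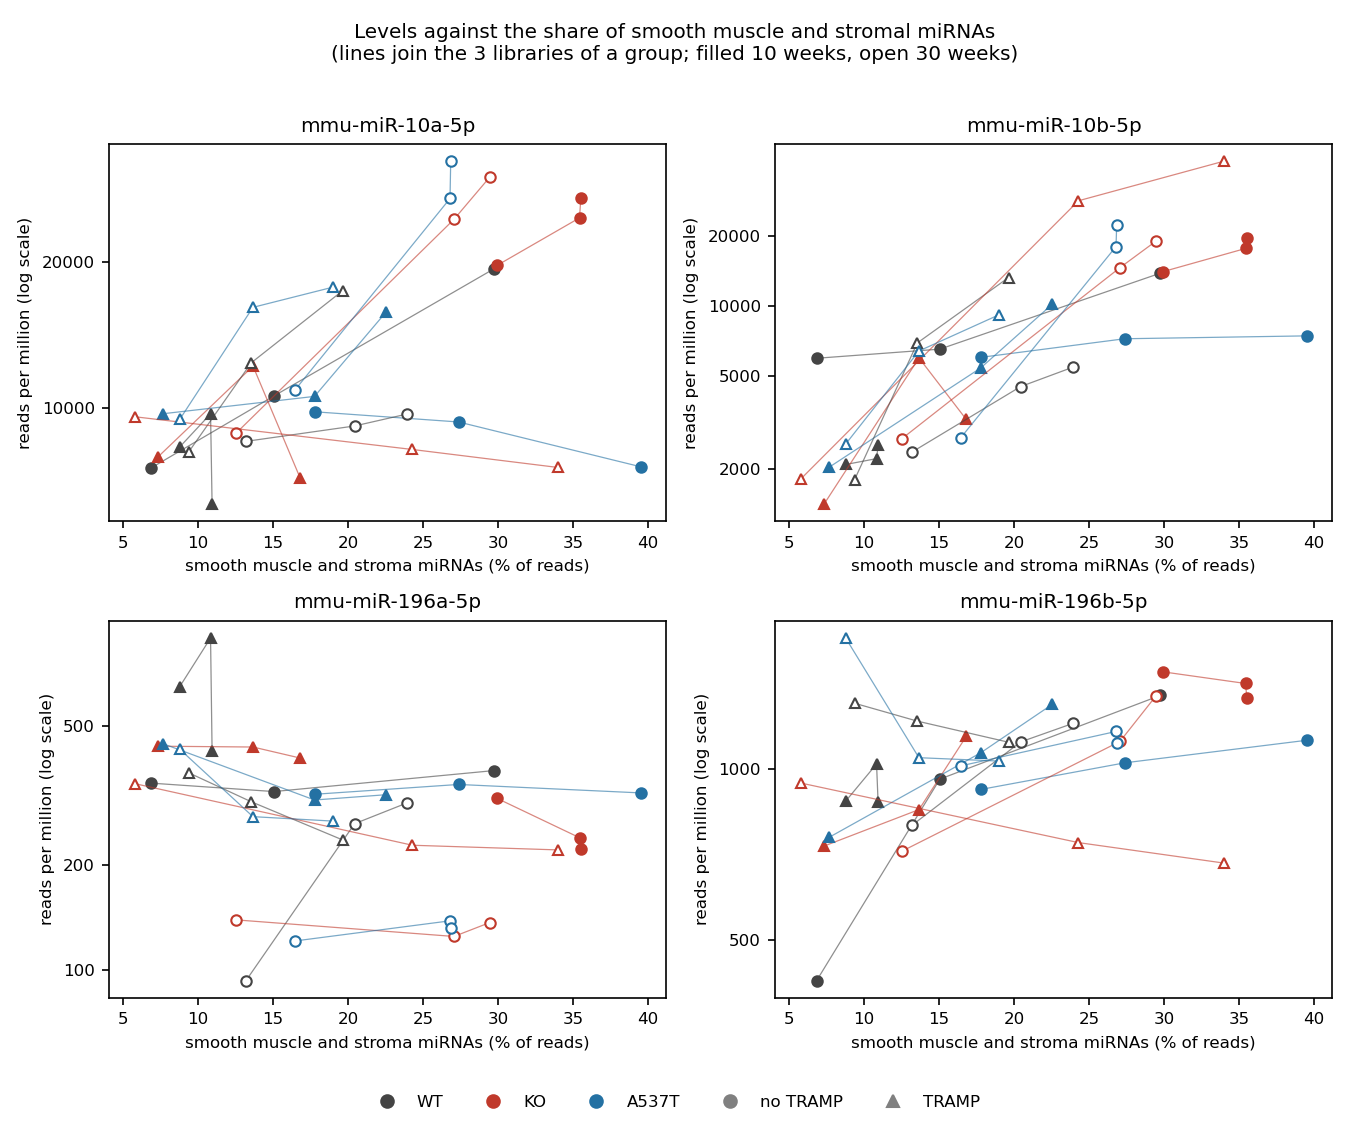
Level of miR-10a-5p, miR-10b-5p, miR-196a-5p and miR-196b-5p in RPM (log axis) against the percent of reads from 5 smooth muscle and stromal miRNAs, with each point 1 of the 36 libraries and lines joining the 3 libraries of a group. Library 16 has the lowest share, 5.80%, and library 17, with 33.99%, has the highest miR-10b-5p.

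Other arms and relatives of these hairpins were read from the same fit. The 3p arm of Mir196a-1 (mmu-miR-196a-1-3p, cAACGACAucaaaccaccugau with its seed in capitals, chr11:96265225-96265246, plus strand) is shown because, unlike miR-196a-5p, it is assigned to that gene. It reached the minimum mean of 10 RPM only through the TRAMP groups, with group means of 15.7 to 30.9 RPM with TRAMP and 5.04 to 8.44 without, so its being tested depended on the groups in which it is high. Of all 298 miRNAs, 15.1% to 47.7% were called in the 6 comparisons with TRAMP. The arm was higher with TRAMP in 6 of 6 without overlap, and these passed with no filter as well. The log2 differences were 2.22 and 2.01 in WT at 10 and 30 weeks (adjusted p = 6.74e-06 and 4e-05, limma), 1.47 and 1.32 in KO (adjusted p = 0.00178 and 0.0028) and 1.49 and 1.57 in A537T (adjusted p = 0.00129 and 0.00115), each with an SE of 0.34. The KO value at 30 weeks was lost with only the 6 libraries compared (adjusted p = 0.077). Its level was low, at 4.07 to 7.60 RPM in WT and 25.5 to 35.2 RPM in WT-TRAMP at 10 weeks, and it was called in 0 of 8 mutant and 0 of 6 age comparisons. Of the relatives with another seed, miR-99a-5p was lower in KO-TRAMP than in KO at 30 weeks (-0.52, adjusted p = 0.0139). The level of miR-99b-5p was higher at 30 weeks in WT-TRAMP (0.62, adjusted p = 0.0355) and KO-TRAMP (0.64, adjusted p = 0.0215), and miR-100-5p was called in no comparison of 2 groups.

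The Hoxc-cluster miRNA miR-615-3p reached the minimum mean only through WT at 10 weeks, with 24.8, 27.7 and 217 RPM (library 30), so it is given as a description without tests. Its group means were 22.2 RPM in A537T at 10 weeks and 3.23 to 12.3 RPM in the other 10 groups.

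The miRNAs with the most similar patterns were found by the mean absolute difference of median-centred log2 levels over the 36 libraries, among 297 other miRNAs. Each miR-10 arm was closest to the other arm of its own hairpin, at 0.16 for miR-10a and 0.21 for miR-10b. Beyond that arm, miR-10a-5p was closest to miR-30a-5p (0.39) and miR-30c-2-3p (0.44), and miR-10b-5p to miR-181d-5p (0.62) and miR-181c-3p (0.63). For miR-196a-5p these were miR-30b-3p (0.40) and let-7i-5p (0.41), and for miR-196b-5p miR-140-3p (0.14) and miR-125b-2-3p (0.21). Of the members with the same seed, miR-10b-5p ranked 148 among the patterns closest to miR-10a-5p (0.73, equal to the median over all), whereas miR-10a-5p ranked 9 among those closest to miR-10b-5p, for which that median was 1.18. Likewise miR-196b-5p ranked 96 for miR-196a-5p (0.62, median 0.71) and miR-196a-5p ranked 205 for miR-196b-5p (median 0.49). These values describe libraries that share depth and tissue composition.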

How the data were processed

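Small RNA was sequenced from 36 prostate libraries. Per the methods, the authors trimmed and merged reads, quantified miRNAs with miRDeep2 against miRBase on mm10 (GRCm38) with reads divided among their mapping positions, summed miRNAs with identical sequences and normalised with DESeq2, whose version is not stated. The deposited values are normalised counts (a signal: reads divided by a size factor per library) in 8 tables. Tables of the authors' own comparisons hold shrunken log2 fold changes and s-values and were not used. Columns matching no group numbered 0.

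Each column was divided by its sum and multiplied to RPM. Whole reads were recovered for 100.0% of 94224 values within 0.001 reads, giving 655455 to 21870210 reads per library. No read was listed for 389 of 1963 miRNAs. The smallest counts limit precision, and Wilson intervals (95%) cover counting error only.

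Levels as log2(RPM + 1) of 298 miRNAs with a mean of at least 10 RPM were fitted with limma 3.58.1 (R 4.3.3) with trend over 36 libraries and 12 group means (24 residual degrees of freedom). The deposited values are normalised, and count tests on the recovered reads were run as alternatives. P-values were adjusted by Benjamini-Hochberg within each comparison over all miRNAs tested, with a threshold of 0.05. Log2 arm ratios of 74 hairpins were fitted likewise. Family ratios were tested by exact permutation within genotypes. Scripts were tested on simulated data. Alternatives were other pseudocounts, filters, scalings and library totals, fits of only the 6 libraries compared, edgeR 4.0.16 and DESeq2 1.42.0 on recovered reads, and each library left out in turn. Named miRNAs were the 6 members, the other arms and relatives of the Hox cluster hairpins, and the 2 closest patterns. Members and lists were chosen with earlier results of these data known. Sequences are RefSeq's on GRCm38.p6, and loci follow GENCODE.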

Additional observations from a re-analysis of the deposited data

How the results depend on the processing

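Counts of calls depended on scaling, tool and single libraries. In the comparisons of mutants with controls, the 0 calls of limma on RPM became 3 with median-of-ratios scaling, 3 with TMM, 1 with edgeR and 5 with DESeq2. Calls over all miRNAs in these comparisons were 32, and became 78, 61, 65 and 141 in the same order. The member calls included miR-10a-3p in KO (1.43, adjusted p = 0.0182) and in A537T (1.43, adjusted p = 0.021) at 30 weeks with median-of-ratios scaling. The 9 TRAMP calls became 5 with no filter on low levels, 7 with median-of-ratios scaling and 10 with only the 6 libraries compared. They became 11 with TMM and 11 with DESeq2. Over all miRNAs the 634 TRAMP calls became 940, 663, 556, 660 and 744 in that order, with more miRNAs tested when no filter was used. The 5 age calls became 1 with no filter, 3 with only the 6 libraries compared and 8 with DESeq2. Over all miRNAs the 245 age calls became 390, 222 and 364. The 0 interaction calls became 3 with median-of-ratios scaling, 2 with TMM, 1 with muscle miRNAs left out of the total, 4 with edgeR and 8 with DESeq2. Over all miRNAs the 161 interaction calls became 204, 184, 210, 207 and 296. With each library left out in turn, counts ran from 0 to 4 for mutants (4 without library 26, 3 without 23 or 28), 6 to 10 for TRAMP, 3 to 8 for age, 0 to 4 for interactions, 1 to 3 for the 2 arm ratio calls and 5 to 7 for the 6 family ratio calls of 8. The cause was not tested.

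The value of miR-196a-5p in A537T-TRAMP against A537T at 10 weeks turned sign with muscle miRNAs left out of the total (-0.0176) and ran from -0.0646 (without library 4) to 0.202 with a library left out, and that in A537T-TRAMP at 30 against 10 weeks from -0.373 to 0.0165 (without library 4). Other scalings moved the median of all miRNAs by -0.294 to 0.44 (median-of-ratios), -0.254 to 0.255 (TMM) and -0.305 to 0.01 (muscle left out). Library 35, with the fewest reads, limits the low arms most. No paired analysis was possible because the columns carry no replicate number of the labels.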
